A study of Mus musculus with 18 samples.

Results

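The 2009 regions described here were the 100 kb stretches (tiles) of the mouse autosomes that kept the least CpG methylation once Dnmt1 had been deleted in embryonic stem cells. They were chosen from 20099 eligible tiles, out of 24010 autosomal tiles with calls. A tile was eligible if at least 70% of its calls were methylated in the pooled control libraries of days 1 to 9 and if it held at least 500 calls in the pooled Dnmt1 KO libraries of days 9 and 11. The lowest 10% by the pooled Dnmt1 KO level of days 9 and 11 (the plateau level) were taken, and the remaining 18090 eligible tiles are called the other tiles. A call is the state, methylated or unmethylated, of 1 cytosine in 1 bisulfite read, and a level is the percent of calls that were methylated. Because the Dnmt1 KO libraries of days 9 and 11 made the choice, their values are description only. The contrasts tested below are of days 1, 3 and 6. The control libraries of these days entered the rule through the 70% limit, which members and other tiles alike had to pass. The Dnmt1 KO libraries of these days did not enter it. The model of single tiles, however, takes its estimate of spread from all 18 libraries, those that made the choice included.

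Whole-genome bisulfite sequencing had been performed on 18 libraries of mouse embryonic stem cells (ESCs), 9 of control cells labelled as wild type and 9 of Dnmt1 KO cells. Each genotype was sampled at days 1, 3, 6, 9 and 11, with 2 libraries per day except day 6, which had 1 per genotype. According to the methods, the knockout line carried floxed Dnmt1 alleles that a tamoxifen-inducible Cre removed in serum medium with LIF. The labels gave strain E14 for all libraries while the methods gave C57BL/6 for the floxed line, so an effect of the deletion and a difference between lines cannot be told apart. In the deleted segment over exons 4 and 5 of Dnmt1, the 9 control libraries held 2 to 18 calls each, the 2 Dnmt1 KO libraries of day 1 held 2 calls in all, and the 7 later ones held 0, which allows up to 3 calls. Before any filter, libraries held 7190722 to 11158414 calls, at 1.202 to 1.253 calls per listed cytosine, so single CpGs were not compared. Promoters of 8 pluripotency genes, which are unmethylated in ESCs, were 14.9% methylated in control (962 calls) and 7.43% in Dnmt1 KO (794 calls).

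DNMT1 is the maintenance methyltransferase: after replication it copies the methylation of the old strand onto the new one, so without it methylation is diluted as cells divide. The de novo enzymes DNMT3A and DNMT3B can add methylation again, and ESCs are known for high levels of both. Large AT-rich, gene-poor domains that replicate late are known to lose methylation in many dividing cells, most of all at CpGs that stand alone between A or T bases, called solo CpGs.

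The kind of sequence that made up these tiles is shown first, because it differed from that of the other tiles. The first pair of windows below comes from the first 2 tiles of the longest run of adjacent lowest-plateau tiles, and the second pair from 2 tiles at the middle of the ranking of all eligible tiles. Each window is 200 bases of the plus strand (build NCBIM37) around the solo CpG nearest the tile's centre, and capitals mark each CpG with the base on either side of it.
Run tile 1, chr8:103251568-103251767: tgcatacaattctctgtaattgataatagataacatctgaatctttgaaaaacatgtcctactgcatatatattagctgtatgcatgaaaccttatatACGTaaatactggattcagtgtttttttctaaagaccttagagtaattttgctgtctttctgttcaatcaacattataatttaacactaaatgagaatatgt
Run tile 2, chr8:103349850-103350049: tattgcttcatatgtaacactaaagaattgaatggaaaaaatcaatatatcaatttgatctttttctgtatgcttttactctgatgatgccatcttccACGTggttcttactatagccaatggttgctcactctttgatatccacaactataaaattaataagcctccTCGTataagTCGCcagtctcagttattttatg
Middle tile 1, chr3:117850360-117850559: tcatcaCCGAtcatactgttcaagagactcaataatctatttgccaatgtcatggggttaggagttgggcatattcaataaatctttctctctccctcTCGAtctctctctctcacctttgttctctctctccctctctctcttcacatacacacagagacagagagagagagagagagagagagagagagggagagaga
Middle tile 2, chr5:91649932-91650131: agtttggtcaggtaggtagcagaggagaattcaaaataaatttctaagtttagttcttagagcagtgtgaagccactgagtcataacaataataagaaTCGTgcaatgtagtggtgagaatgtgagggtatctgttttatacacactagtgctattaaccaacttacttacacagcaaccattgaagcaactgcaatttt
GC content was 28.0% and 33.0% in the run windows against 44.5% and 36.5% in the middle windows. Over the whole tiles the contrast was smaller, with 36.4% and 36.3% GC in the run against 38.4% and 39.7% in the middle. The whole tiles held 437 and 467 CpGs in the run and 672 and 690 CpGs in the middle of the ranking. Solo CpGs made up 25.2% and 28.1% of the CpGs in the run tiles against 21.0% and 16.5% in the middle ones. At day 6 of Dnmt1 KO these 4 tiles stood at 8.71%, 12.2%, 23.7% and 20.2% on 271 to 332 calls each, while at day 6 of control they stood at 82.3%, 84.4%, 90.3% and 83.5%.

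Over all members, the plateau level ran from 5.38% to 13.8%, with a median of 12.2% on a median of 636 calls. The median of the other tiles was 24.3%. The 3 members nearest the limit (chr1:125500001-125600000, chr3:43100001-43200000 and chr2:95500001-95600000) and the 3 other tiles nearest to it (chr8:7100001-7200000, chr3:155700001-155800000 and chr3:123700001-123800000) all lay between 13.8% and 13.9%, so the limit cut through a continuous range. When tiles were ranked by day 9 alone and by day 11 alone, 1188 of 2009 tiles (59.1%) appeared in both choices. Of the tiles left out, 3318 were under 70% in control. A further 567 met the control limit but had under 500 calls, and these stood at 15.9% at day 6 of Dnmt1 KO, between the members and the other tiles.

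At day 1 the members were close to the other tiles. They were 72.5% and 73.5% methylated in the 2 Dnmt1 KO libraries, where the other tiles were 72.8% and 73.3%. By day 3 the members stood at 26.4% and 28.0% and the other tiles at 34.8% and 36.2%. At day 6 the single library gave 13.0% in the members and 25.5% in the other tiles. The 4 libraries that made the choice, whose values the choice pushes low in the members, gave 11.7% and 12.8% at day 9 and 11.4% and 11.9% at day 11, against 25.5% to 26.4% in the other tiles.

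In control cells the members were as methylated as the other tiles to within 1.42 points at every day. They stood at 81.7% and 79.1% at day 1, 79.0% and 78.5% at day 3, 82.2% at day 6, 80.6% and 78.3% at day 9 and 75.9% and 76.5% at day 11. The other tiles stood at 80.9% and 78.7%, 79.0% and 79.0%, 82.7%, 81.0% and 79.0%, and 74.9% and 75.03% on the same days. The Dnmt1 KO and control libraries did not overlap on any day in either class of tiles. Relative to control, the members retained 90.8% of the control level at day 1, 34.5% at day 3 and 15.8% at day 6, and the other tiles 91.5%, 44.9% and 30.8%.

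**Figure D1:**
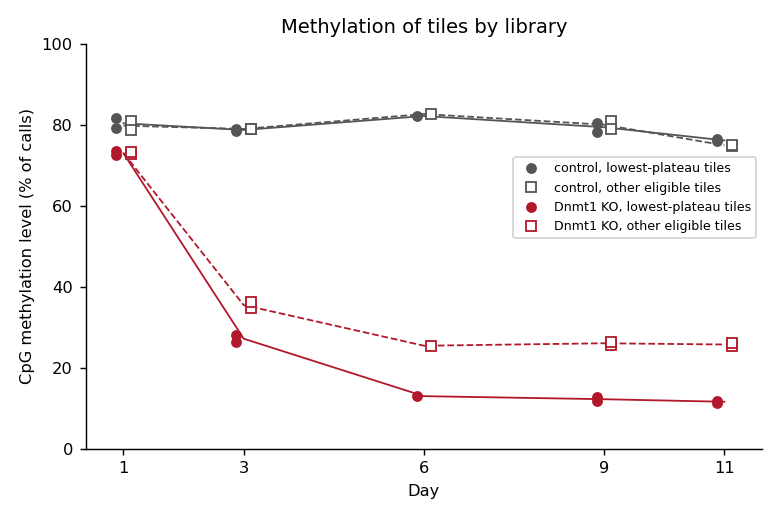
CpG methylation level (percent of calls) by day in the lowest-plateau tiles (filled circles, solid lines) and the other eligible tiles (open squares, dashed lines), with 1 point per library and lines through the means of each day, for control (grey) and Dnmt1 KO (red). The 2 classes coincide in control and at day 1 of Dnmt1 KO, and stand at 13.0% and 25.5% at day 6 of Dnmt1 KO; the tiles were chosen on Dnmt1 KO at days 9 and 11.

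The difference between classes was measured per library as the gap, the level of the members minus the level of the other tiles. In Dnmt1 KO it was -0.279 and 0.211 points at day 1, -8.44 and -8.17 points at day 3 and -12.5 points at day 6. In control it was 0.752 and 0.410 points at day 1, -0.0462 and -0.464 points at day 3 and -0.497 points at day 6. At each of the 3 days every Dnmt1 KO gap was below every control gap. Averaged over these days the gap was -6.93 points in Dnmt1 KO (n = 5) and -0.0570 points in control (n = 5), a difference of -6.87 points. An exact permutation test, two-sided, of the genotype labels within days gave p = 0.0278, which is the smallest value its 72 arrangements allow and which became 0.05, not under 0.05, when adjusted over the 9 tests of this kind. Leaving out the day 6 libraries gave -4.33 points (exact permutation p = 0.0556, the smallest possible without them). Leaving out either the first control or the first Dnmt1 KO library of day 1 gave the same p, although 0.0278 was possible there. The change of the gap from day 1 to days 3 and 6 in Dnmt1 KO minus that in control was -9.39 points, which the design did not resolve (exact permutation p = 0.167, adjusted p = 0.167).

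The share of calls that fell in the members was compared as well. Over days 1, 3 and 6 the members received 5.40% of the calls on eligible tiles in the 5 Dnmt1 KO libraries and 4.99% in the 5 control libraries (difference 0.410 points, exact permutation p = 0.0278, adjusted p = 0.05). Leaving out the second control library of day 1 lowered this difference to 0.166 points (exact permutation p = 0.0556). Leaving out either Dnmt1 KO library of day 1 gave 0.382 and 0.438 points (exact permutation p = 0.333 each). Whether coverage had a part in the gap was not tested.

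Single tiles repeated the order of the plateau at days that had not been used to choose them. In Dnmt1 KO at day 6 all 2009 members lay below the level of all eligible tiles of that library, 24.8%, against 55.5% of the other tiles, where the background over all eligible tiles was 59.9%. At day 3, 1901 (94.6%) and 1919 (95.5%) members lay below it in the 2 libraries, against a background of 56.8% and 57%. At day 1 these shares were 50.6% and 44.4%, with a background of 42.4% and 40.4%. In control at day 3, 923 (45.9%) and 993 (49.4%) members lay below the level of their library, with a background of 39.5% and 39.9%. At day 6 of control it was 1001 members (49.8%), with a background of 38.3%, and at day 9 of control 1011 (50.3%) and 1069 (53.2%), with a background of 39.4% and 41.1%. Day 1 of control gave 779 (38.8%) and 859 (42.8%), with a background of 37.3% and 38.1%. Day 11 of control, which did not enter the rule, gave 756 (37.6%) and 691 (34.4%), with a background of 36.7% and 36.5%. Ranked afresh, 993 members (49.4%) were among the lowest 10% of tiles at day 3 and 1189 (59.2%) at day 6, against 10% of all eligible tiles by definition. Only 141 members (7.02%) did so at day 1, and 67 (3.33%) did so in control at day 11. As a description across 20099 tiles, which share libraries and base composition, the Pearson correlation of the tile level with the plateau level in Dnmt1 KO was 0.175 (day 1), 0.791 (day 3) and 0.884 (day 6), and in control at day 11 it was 0.0553.

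Single members varied at day 6 of Dnmt1 KO, and how much of their spread was counting error was not tested. The lowest tile stood at 3.77%, the middle 50% of members between 10.7% and 14.98%, and the highest at 24.7%, on a median of 212 calls per tile. The other tiles had a median of 23.9% and ran from 5.67% to 49.4%. In control at days 3 and 6 the medians were 80.4% in the members and 81.9% in the other tiles.

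**Figure D2:**
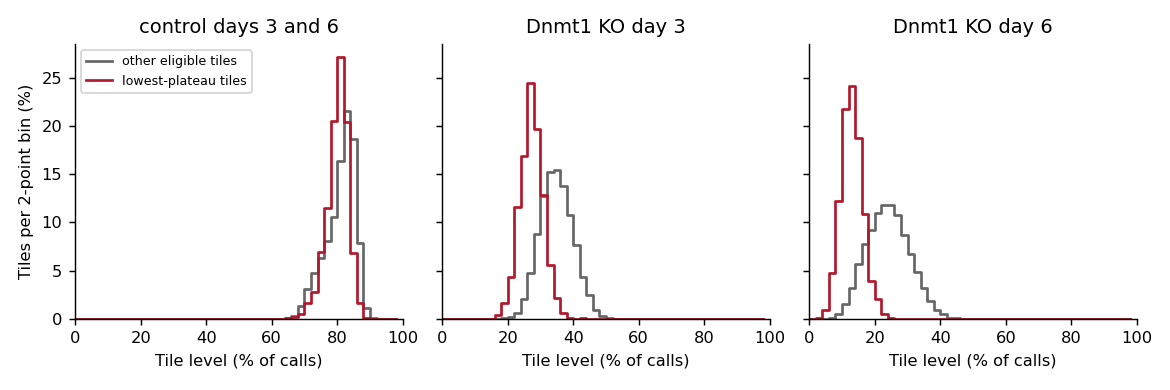
Distribution of tile levels (horizontal axis, percent of calls) as the percent of tiles per 2-point bin, for the lowest-plateau tiles (red) and the other eligible tiles (grey) in control at days 3 and 6, Dnmt1 KO at day 3 and Dnmt1 KO at day 6. The medians were 80.4% and 81.9% in control and 12.8% and 23.9% at day 6 of Dnmt1 KO, where the ranges still overlapped.

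Each tile was also tested on its own in a quasi-binomial model of its calls that set the tile against its library as a whole, so that the loss common to all tiles was removed. The contrast was the mean of days 3 and 6, Dnmt1 KO minus control, in log odds, with Benjamini-Hochberg adjustment over all 20099 tiles. All 18 libraries were in the fit and shared the estimate of spread, so the libraries that made the choice entered that estimate. The lone day 6 libraries were assumed to vary like the others. A tile called lower is one whose departure from its library was more negative in Dnmt1 KO than in control. The model called 1035 of the 2009 members (51.5%) lower and 0 higher. The background was 15.9% of all eligible tiles called lower (3205) and 7.05% called higher (1417). The median contrast was -0.61 in the members (quartiles -0.76 and -0.44) and -0.11 in the other tiles. The contrast was below 0 in 1997 members (99.4%), with a background of 66.1%. These calls rested on day 6: without its pair of libraries 5 members (0.249%) and 17 tiles in all (0.0846%) were called lower, although both day 3 libraries had negative gaps. At day 1 the same model called 0 tiles, 0 of them members, with 56 members and 1433 tiles at an unadjusted p under 0.05.

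The 6 called members with the most negative contrast are given as examples that were picked for their size. They had contrasts of -1.51, -1.43, -1.41, -1.41, -1.35 and -1.34 log odds and lay at chr2:39900001-40000000, chr1:29000001-29100000, chr6:20800001-20900000, chr4:38200001-38300000, chr4:29800001-29900000 and chr3:44500001-44600000. The first had an SE of 0.284 and an adjusted p of 0.00276 in the quasi-binomial model. Its levels in control were 87.1% and 84% at day 3 and 91.1% at day 6, while in Dnmt1 KO they were 69.3% and 73.9% at day 1, 22.3% and 28.6% at day 3, and 7.73% at day 6 (194 calls, exact 95% interval 4.39% to 12.4%). All 6 tiles stood between 3.77% and 7.73% at day 6 of Dnmt1 KO and between 82.7% and 91.1% at day 6 of control.

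No protein-coding gene overlapped any of these 6 tiles. The nearest protein-coding gene to the first was Lrp1b, a very large receptor of the LDL receptor family, at 450768 bp. The second tile lay 87283 bp from Gm17684, a predicted gene, and the fourth 1097328 bp from 1700009N14Rik. Kcnd2, a voltage-gated potassium channel of neurons, was 265503 bp from the third tile. Epha7, an ephrin receptor of axon guidance, was 905352 bp from the fifth, and Pcdh10, a protocadherin adhesion molecule, was 582320 bp from the sixth. GC content of the 6 tiles ran from 35.2% to 37.7%, and they held 3.67 to 4.38 CpGs per kb.

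Base composition differed between the classes of tiles. Median GC content was 36.9% in the members (middle 80% of tiles 35.8% to 38.6%) and 41.5% in the other tiles (37.7% to 46.7%). Under 38% GC lay 1631 members (81.2%) and 12.7% of the other tiles, and all 2009 members lay under 43% GC, as did 64.7% of the other tiles. Median CpG density was 4.58 per kb against 7.74 per kb, and solo CpGs made up a median of 26.0% of CpGs against 16.8%. The members held a median of 3081 calls over all libraries and the other tiles 5859, so call depth moved with composition, and its part in the choice was not tested.

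Among all eligible tiles grouped by GC content, the share that were members was 75% at 34 to 35% GC, 51.5% at 36 to 37%, 11.8% at 38 to 39%, 1.19% at 40 to 41% and 0 from 43% upward. The level at day 6 of Dnmt1 KO in these first 4 bins was 12.0%, 14.6%, 19.0% and 23.7%, and it was between 27.6% and 28.5% in the bins from 43% to 52% GC. In control at days 3 and 6 it was 79.0% at the lowest GC, 81.8% at 37 to 38% and 76.9% at the highest. At equal GC content the members were still the lower class: at 36 to 37% GC, 725 members stood at 12.5% at day 6 and the other tiles of that bin at 16.6%, and at day 3 they stood at 27.0% and 30.2%. Control levels in that bin were 80.2% and 81.9%. Across the 20099 tiles the Spearman correlation of GC content with the level was 0.702 at day 6 of Dnmt1 KO, 0.539 at day 3 and -0.128 at day 1, and it was -0.146 in control at days 3 and 6. These are descriptions across tiles that share libraries.

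**Figure D3:**
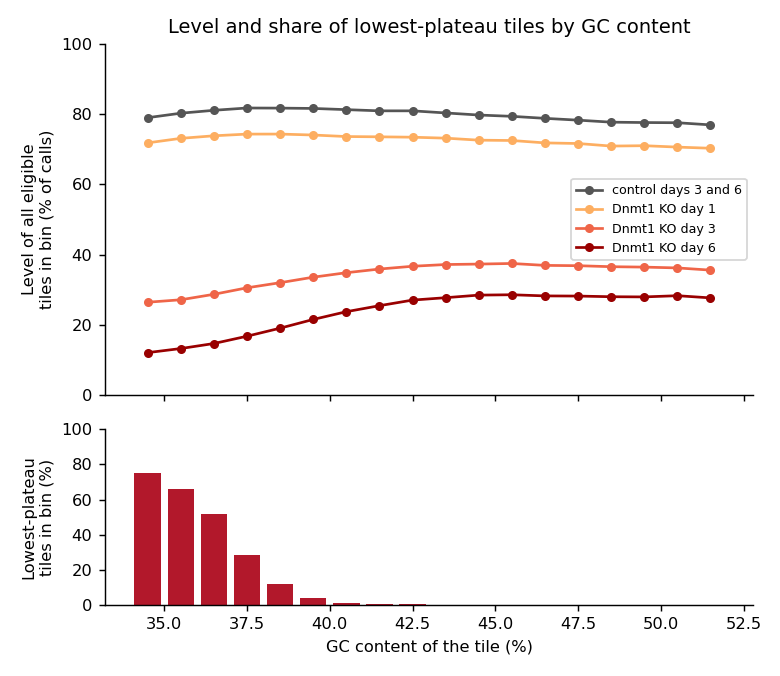
Upper panel, level of all eligible tiles (percent of calls) in bins of 1 percentage point of GC content for control at days 3 and 6 and Dnmt1 KO at days 1, 3 and 6; lower panel, percent of the tiles in each bin that are lowest-plateau tiles. Control changes little with GC content, Dnmt1 KO at day 6 runs from 12.0% to 28.5%, and 75% of tiles in the lowest bin are members.

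The rule for choosing tiles fixed its reach along this axis. Calls per tile at days 9 and 11 of Dnmt1 KO went with CpGs per tile (Spearman correlation 0.918 across 20099 tiles, a description). A minimum of 1000 calls left 11039 eligible tiles with a median GC of 43.5%, and of the 1103 tiles it then chose, 12 (1.09%) were among the 2009 described here. For those 1103 the gap in Dnmt1 KO minus that in control was -2.32 points (exact permutation p = 0.0556), and the tile model called 82 of them (7.43%) lower, where the background over the 11039 tiles was 1.97%. The size of the gap therefore belongs to tiles that a minimum of 500 calls admits.

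The members were lower in each of 4 sequence contexts at day 6 of Dnmt1 KO. Solo CpGs stood at 9.93% in the members and 19.96% in the other tiles, and CpGs between A or T that were not solo at 14.3% and 26.4%. CpGs with A or T on one side stood at 13.6% and 26.5%, and CpGs between C or G at 16.1% and 27.0%. In Dnmt1 KO at day 3 the members' levels in the same 4 contexts were 22.2% ± 1.14, 28.6% ± 1.05, 28.5% ± 1.08 and 32.0% ± 1.48 (SD, n = 2).

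Contexts differed in control cells as well. At day 6 of control, solo CpGs stood at 77.2% in the members and 81.4% in the other tiles, whereas CpGs between C or G stood at 85.4% and 81.0%. Over days 1, 3 and 6 the gap in Dnmt1 KO minus that in control was -3.40 points for solo CpGs (exact permutation p = 0.139, adjusted p = 0.156). It was -6.93 points for other CpGs between A or T and -7.46 points with A or T on one side (exact permutation p = 0.0278 each, adjusted p = 0.05). Without day 6 these became -4.26 and -4.60 points (exact permutation p = 0.0556 each, the smallest possible there). With A or T on one side, leaving out the first control or either Dnmt1 KO library of day 1 also gave an exact permutation p of 0.0556, although 0.0278 was possible. CpGs between C or G gave -8.31 points, with an exact permutation p of 0.0556 and 0.0714 after adjustment. Without day 6, CpGs between C or G gave -4.85 points and solo CpGs -2.17 points. With solo CpGs defined by 100 bp, the other CpGs between A or T gave -5.54 points (exact permutation p = 0.0556). The contexts were not tested against each other.

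CpGs were also grouped by local density, that is by how many CpGs, counting the CpG in question, lay no more than 250 bp away. A CpG with no other in that window stood at 9.70% in the members and 16.8% in the other tiles at day 6 of Dnmt1 KO. With 5 to 6 CpGs the values were 15.4% and 27.0%, and with 10 to 14 CpGs they were 23.2% and 30.6%. Members thus ranged widely with local density at day 6 of Dnmt1 KO, while in control at day 6 the same classes stood at 80.1%, 84.8% and 84.4%. The class of 25 or more CpGs, as in CpG islands, took 0.724% of the calls in members and 2.32% in the other tiles. They were 40.7% methylated in the members and 13.4% in the other tiles at day 6 of control, and 10.8% and 4.78% at day 6 of Dnmt1 KO, so in this class the members were the more methylated.

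**Figure D4:**
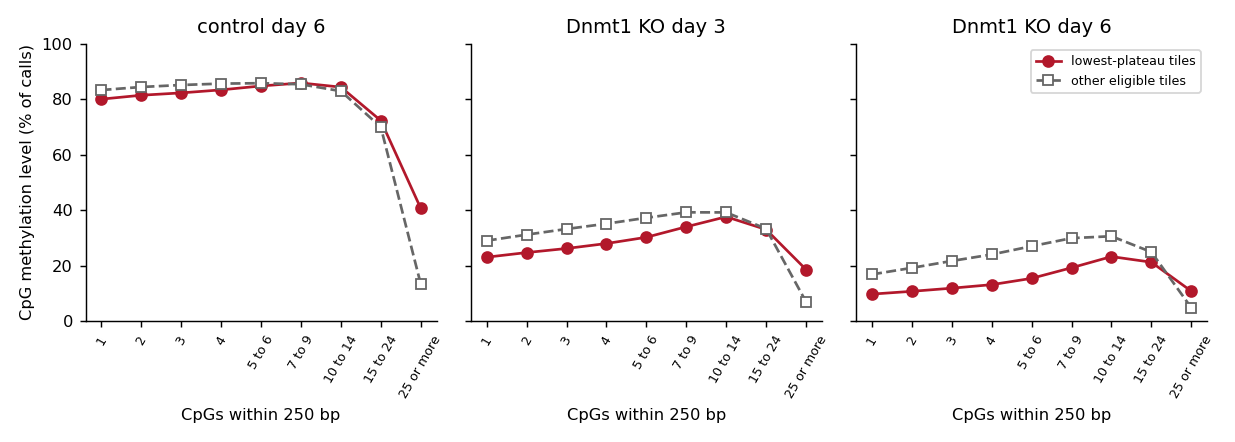
CpG methylation level (percent of calls) by the number of CpGs within 250 bp, the CpG itself included, in the lowest-plateau tiles (filled circles) and the other eligible tiles (open squares) for control at day 6, Dnmt1 KO at day 3 (mean of 2 libraries) and Dnmt1 KO at day 6. In Dnmt1 KO at day 6 the members run from 9.70% at 1 CpG to 23.2% at 10 to 14 CpGs and lie below the other tiles up to 24 CpGs.

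To see how much of the gap went with this mix, the other tiles were reweighted to the members' calls over 90 classes of context, local density and position inside or outside genes. The reweighted other tiles stood at 21.6% at day 6 of Dnmt1 KO, and the gap was -8.61 points, 69.1% of its size before. At day 3 it was -5.70 points, or 68.7%. In control the reweighted gap was -0.944 points at day 3 and -1.62 points at day 6. Over days 1, 3 and 6 the reweighted gap in Dnmt1 KO minus that in control was -3.90 points (exact permutation p = 0.111), a comparison added after the data had been seen.

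The members were poor in genes. No base of 1138 members (56.6%) lay inside a gene, against 27.0% of the other tiles, and 281 members (13.99%) lay wholly inside genes, against 18.2%. A protein-coding gene started in 294 members (14.6%) and in 37.5% of the other tiles. Position inside a gene made little difference to the members' own level, which was 12.5% inside and 13.1% outside genes at day 6 of Dnmt1 KO, where the other tiles stood at 26.8% and 24.1%. Over days 1, 3 and 6 the gap in Dnmt1 KO minus that in control was -7.79 points inside genes (exact permutation p = 0.0278, adjusted p = 0.05). Without day 6 it was -5.04 points inside genes (exact permutation p = 0.0556, the smallest possible there). Outside genes it was -5.81 points over days 1, 3 and 6 (exact permutation p = 0.0556, adjusted p = 0.0714).

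Of the 11805 protein-coding genes that started in an eligible tile, 639 (5.41%) started in a member, and the gene lists are read against that share. Olfactory receptors, the odour receptors of the nose, had 295 of 1042 starts (28.3%) in members. Vomeronasal receptors, which detect pheromones, had 79 of 244 (32.4%). Both families lie in clusters, so their genes share tiles: the 295 olfactory starts lay in 74 tiles and the vomeronasal ones in 41. These olfactory tiles stood at 27.2% at day 3 and 13.6% at day 6 of Dnmt1 KO, and the 226 other tiles with olfactory starts at 31.4% and 19.4%. In control at day 6 they stood at 82.1% and 82.8%. The 41 vomeronasal tiles stood at 26.9% at day 3 and 13.1% at day 6 of Dnmt1 KO, and the 103 other tiles with vomeronasal starts at 32.1% and 19.4%. Here the members were also the lower in control, with 76.4% against 79.3% at day 3 and 79.8% against 83.1% at day 6, and at day 1 of Dnmt1 KO, with 71.5% against 73.8%.

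Long neural adhesion and synapse genes had 21 of 66 starts (31.8%) in members. Of the 81 autosomal gene models in this list, 47 had some sequence in members and 16 had over 50% of their length there, of which 3 were short models of Ptprd and Nkain2. Long genes span more tiles, so these counts are set beside genes of similar length. Among models of at least 500 kb, 34 of the 57 in the list (59.6%) had some sequence in members and 10 (17.5%) had over 50%, against 25 (19.1%) and 6 (4.58%) of the 131 others of that length. Over all 21418 autosomal protein-coding models these shares were 3.52% and 2.92%. Cntn6, a contactin adhesion molecule (chr6:104442784-104813400), lay in members over 96.4% of its length. Lrrc4c, a netrin-G ligand of synapses (chr2:96158326-97471823), did so over 92.4%. Erbb4, a neuregulin receptor, had 65.1% of its length in members and Grik2, a kainate-type glutamate receptor, 58.03%. Other genes of the list had no base in a member, among them Rbfox1 and Robo1.

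Zinc finger proteins had 8 of 152 starts (5.26%) in members, near the share of all genes. That share is itself raised by the receptor families, whose 295 olfactory and 79 vomeronasal starts are among the 639 in members. Keratins had 0 of 46, beta-defensins 0 of 36, ribosomal proteins 0 of 7, the DNA methylation and Tet genes 0 of 7, pluripotency genes 0 of 6 and germ layer transcription factors 0 of 4. None of these lists was tested against the share of all genes, which gives few starts for lists of this size. For Hox genes and clustered protocadherins a single start each lay in an eligible tile, that of Hox outside and that of Pcdha11 inside the members.

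Members occurred on all 19 autosomes. Their share of eligible tiles was lowest on chromosomes 9 (4.68%), 13 (4.74%) and 11 (5.86%) and highest on chromosome 14 (15.5%), with the remaining chromosomes between 6.40% and 12.9%. Chromosome 13 had a median GC of 41.3% and chromosome 14 of 40.7%. A tile needed at least 500 calls at days 9 and 11 of Dnmt1 KO to be eligible. The part that call depth had in these shares was not tested. Within 5 Mb of the first sequenced base lay 47 members (2.34%) and within 5 Mb of the last 59 (2.94%), against 3.85% and 3.63% of the other tiles.

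Members lay next to each other. Of the 2009, 1347 (67.05%) had a member on at least one side, while 8.85% of the other tiles did. They formed 1084 runs, of which 662 were single tiles and 116 held at least 4 tiles, with 645 tiles in all. The longest spanned 13 tiles (1300 kb) at chr8:103200001-104500000 and overlapped 1 protein-coding gene model, Gm17316. Its level in Dnmt1 KO was 73.5% and 73.5% at day 1, 25.2% and 26.6% at day 3, and 10.95% at day 6 (3351 calls, exact 95% interval 9.91% to 12.1%), and in control it was 78.8% at day 3 and 83.3% at day 6. The 10 tiles that flanked it, 5 on each side, stood at 28.9% at day 3, where the run stood at 26.0%, and at 11.18% at day 6 of Dnmt1 KO. Their pooled plateau level was 11.75%, under the limit of 13.84% for members, so the flanking tiles included low ones and are no set of non-members. In control the same flanking tiles stood at 79.9% at day 3 and 85.8% at day 6, so the run was further below them in control than in Dnmt1 KO at day 6.

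The next 4 runs held 10 to 12 tiles. Those at chr14:96500001-97700000, chr14:107400001-108600000 and chr8:51400001-52600000 held 12 tiles each and that at chr5:84600001-85600000 held 10. In the same order these 4 runs held 9006, 9153, 9154 and 6265 calls at days 9 and 11 of Dnmt1 KO, at 4.63 to 5.07 CpGs per kb. Whether call depth had a part in where long runs lay was not tested. Their levels at day 6 of Dnmt1 KO were 10.96%, 11.4%, 12.5% and 11.5% and those of their flanking tiles 13.0%, 15.5%, 12.9% and 12.5%. The pooled plateau levels of these flanking tiles were 13.82%, 14.4%, 14.3% and 14.1%, near the limit of 13.84%. In control at day 6 the runs stood at 81.4%, 82.0%, 83.4% and 81.1% and their flanking tiles at 83.1%, 83.1%, 85.6% and 82.1%. At day 3 of control the last of these runs stood at 78.8%, above its flanking tiles at 77.5%. Klhl1, an actin-binding kelch protein of neurons, lay wholly in the second run, and Epha5, an ephrin receptor, had 68.5% of its length in the fifth. The runs at chr14:107400001-108600000 and chr8:51400001-52600000 overlapped 0 protein-coding genes.

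Levels across the edges of the 116 runs of at least 4 tiles showed a small step at the edge. At day 6 of Dnmt1 KO the 20 kb inside the edge stood at 12.6% and the 20 kb outside it at 15.2%, and 180 to 200 kb from the edge they stood at 11.9% inside and 13.96% outside. Up to 500 kb outside, no 20 kb bin went above 16.97%, nearer to the members than to the 25.5% of the other tiles. These outside bins may hold members of other runs, and their share was not examined. In control at days 3 and 6 the bins next to the edge stood at 80.3% inside and 81.4% outside. The position of the edge comes from the choice of tiles, so the step has no test.

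**Figure D5:**
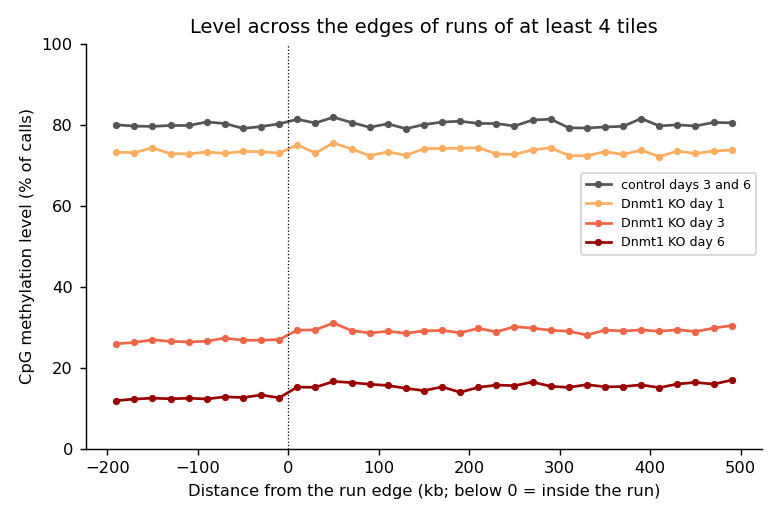
CpG methylation level (percent of calls) in 20 kb bins by distance from the edge of the 116 runs of at least 4 adjacent lowest-plateau tiles, with negative distances inside the run, for control at days 3 and 6 and Dnmt1 KO at days 1, 3 and 6. At day 6 of Dnmt1 KO the level goes from 12.6% just inside to 15.2% just outside and stays at or below 16.97% out to 500 kb, while the control bins lie between 79.1% and 81.9%.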

How the data were processed

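According to the methods, the authors used Trim Galore on the paired reads and Bismark (version 0.12.3 in the submitters' processing notes) for alignment to NCBIM37, removed duplicates and extracted calls. For the deposited tables, which average 1.202 to 1.253 calls per listed cytosine, a coverage minimum is not given in the sources used here; the coverage limit in the authors' methods concerns their own levels of windows and features. The deposited tables hold counts of methylated and counts of unmethylated calls per cytosine, and a deposited percent that was checked to equal their ratio at every entry. Only the counts were used, without normalization.

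Cytosines with over 20 calls in any library (1846) and those outside a CpG of the reference (0.101% to 0.120% of entries) were dropped, and calls were summed over 100 kb tiles. The 1846 cytosines held 540833 to 788026 calls per library. Calls on the mitochondrial genome were 0.228% to 0.467% methylated. Genes were GENCODE models on NCBIM37. Groups came from the labels, which state biological replicates.

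Gaps were tested by exact permutation of genotype within days 1, 3 and 6. Tiles were tested by quasi-binomial regression with library offsets and dispersions moderated by squeezeVar of limma 3.58.1 in R 4.3.3 (median dispersion 1.76), called at adjusted p under 0.05. The model was also run on simulated calls with the same spread in every library, set below that median. This run therefore cannot check the assumed spread of the day 6 libraries. Python 3.11.15, numpy 2.4.6, pandas 2.3.3, scipy 1.17.1 and matplotlib 3.10.9 were used. Intervals are exact (Clopper-Pearson) and cover counting error only. Named runs are the 5 longest, and named tiles the 6 with the most negative contrast among the members called. The members and gene lists were chosen with earlier results of these data known. Alternatives covered filters, the choice and size of tiles, left-out libraries, a replicate block and limma on tile levels.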

Additional observations from a re-analysis of the deposited data

How the results depend on the processing

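A minimum of 1000 calls, whose 1103 chosen tiles share 12 with the members, gave a gap difference of -2.32 points and 7.43% of the chosen tiles called lower, against 1.97% of the 11039 eligible. A control minimum of 80% gave 27.2% of 1293 chosen tiles called lower, against 6.83% of the 12933 eligible. Reweighting the other tiles to the members' CpG classes, added after the data were seen, gave -3.90 points. Solo CpGs defined by 100 bp gave -5.54 points for the other CpGs between A or T (exact permutation p = 0.0556, where the main setting gave 0.0278). The cause of these shifts was not tested. Apart from the gap under the replicate block, the remaining alternatives that kept every library in the tests gave 44 values. Some of these alternatives left Dnmt1 KO libraries out of the choice of tiles. All 44 values kept their direction and their side of the threshold or stayed within 1.5 times of the main count.

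Leaving out 1 library at a time, and both libraries of day 6 since each genotype has 1 there, gave gap differences of -6.96 to -4.33 points over all CpGs, -3.48 to -2.17 for solo CpGs, -7.00 to -4.26 for other CpGs between A or T, -7.56 to -4.60 with A or T on one side, -8.47 to -4.85 between C or G, -7.90 to -5.04 inside genes and -5.88 to -3.62 outside genes. The change from day 1 ran from -9.63 to -7.43 points and the share of calls from 0.166 to 0.655 points (0.547 without day 6, where the smallest possible exact permutation p is 0.0556). Members called lower ran from 0.249% to 52.3%. For all eligible tiles, where the libraries of days 3 and 6 alone were left out in turn, those called lower ran from 0.0846% to 12.0% and those called higher from 0.517% to 5.55%, all under the main values of 15.9% and 7.05%. The low end came without day 6 for each count, and with day 6 kept the members called lower ran from 34.5% to 52.3%. Where a day kept 1 library of a genotype, that library was assumed to vary like the others.

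The labels give the same replicate numbers to control and Dnmt1 KO libraries of a day. The correlation of the deviations of such libraries over tiles was between -0.00705 and 0.00678. Single tiles hold few calls, so this correlation cannot exclude a pairing. With the replicate block the gap difference was -6.87 points (exact permutation p = 0.0625, the smallest possible), and 50.7% of members and 15.5% of all eligible tiles were called lower and 7.04% higher. Depth limits single tiles, which held a median of 212 calls at day 6 of Dnmt1 KO.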

Other observations

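On the X chromosome, which the rule left out, 260 tiles met the same limits on control level and calls. Of these, 5 (1.92%) lay at or under the autosomal limit of 13.8% at days 9 and 11 of Dnmt1 KO. At day 6 these 5 stood at 18.5% and the other 255 at 22.6%, and their median GC contents were 41.4% and 41.1%. In control at days 3 and 6 they stood at 79.7% and 77.7%. On the autosomes calls per tile went with CpGs per tile, so the minimum of calls may have kept AT-rich X tiles out. These values therefore do not decide whether low tiles of the X chromosome are AT-rich like the autosomal members.

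In control cells the level at day 11 minus that at day 9 was -3.25 points in the lowest-plateau tiles and -5.09 points in the other autosomal tiles, with 2 libraries per day and no test.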
